A study of Homo sapiens with 6 samples.

Results

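SS18, SSX1 and SSX3 were followed guide by guide through a pooled CRISPR screen of synovial sarcoma cells. All guides assigned to these 3 genes in the table of counts were taken, 10 per gene, so that 30 of the 3653 guides in the library were described. The cells, HS-SY-II, are an established human line with the SS18::SSX1 fusion, and SS18 and SSX1 are the genes whose parts are joined in it. SSX3 is a close relative of SSX1 on the X chromosome. The library held 348 genes, which the study had selected from outside dependency screens for being needed more by synovial sarcoma lines than by other cancer lines.

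The study compared 3 groups of 2 libraries. The in vivo group held tumours that grew in athymic nude mice after subcutaneous transplantation in Matrigel. They were taken at a set tumour volume, and the day is not given. The in vitro group held cells kept in culture for 14 days. The day 0 group held cells frozen after puromycin selection and served as the starting point of both arms. Every group carried Cas9 and the lentiviral guide library, so no library without Cas9 cutting was analysed here. All cells came from 1 line and nude mice lack mature T cells, which limits the tumours as a model of the disease. Each arm had 2 replicates, and the labels number the tumours 1 and 2. The appendix of the study names both tumours as mice of 1 replicate, so whether they came from separate transductions is not settled, and p-values may measure technical spread in part.

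SS18 encodes a subunit of the BAF chromatin remodelling complexes, which slide and evict nucleosomes. SSX proteins are normally made in the testis, and their carboxy-terminal part binds nucleosomes at sites marked by Polycomb repressive complex 1. In synovial sarcoma a translocation joins most of SS18 to the end of an SSX gene, and the fusion protein takes the place of SS18 in the BAF complex. A guide against the retained part of SS18 can therefore cut the normal and the fused copy, and a guide against the retained part of SSX1 can cut the fusion. In a pooled screen a guide becomes rarer when cells that carry it divide less or are lost.

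SS18 lies on the minus strand of chr18:26016253-26091217 (hg38, GENCODE MANE Select transcript ENST00000415083.7) and has 11 coding exons with 1254 coding bases. SSX1 lies on the plus strand of chrX:48255392-48267444 (ENST00000376919.4) and SSX3 on the minus strand of chrX:48346427-48356707 (ENST00000298396.7). The SSX genes have 6 coding exons and 564 coding bases each. The usual fusion keeps SS18 exons 1 to 10 and SSX exons 6 and 7, which hold 1230 coding bases of SS18 and 234 of SSX. The coding parts of these 2 SSX exons are printed here because they carry the retained part of SSX1, with the bases that differ between SSX1 and SSX3 in capitals.
SSX1 exon 6, chrX:48263782-48263917, plus strand: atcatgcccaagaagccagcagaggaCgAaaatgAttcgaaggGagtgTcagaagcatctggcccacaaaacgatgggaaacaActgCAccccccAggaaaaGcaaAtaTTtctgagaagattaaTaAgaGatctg
SSX3 exon 6, chrX:48349987-48350122, minus strand: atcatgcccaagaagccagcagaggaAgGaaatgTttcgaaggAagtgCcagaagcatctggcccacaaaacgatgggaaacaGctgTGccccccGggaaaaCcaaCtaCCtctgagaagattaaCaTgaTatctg
SSX1 exon 7, chrX:48266287-48266384, plus strand: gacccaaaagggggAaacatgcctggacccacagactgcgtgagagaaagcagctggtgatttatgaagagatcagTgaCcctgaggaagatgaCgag
SSX3 exon 7, chrX:48347507-48347604, minus strand: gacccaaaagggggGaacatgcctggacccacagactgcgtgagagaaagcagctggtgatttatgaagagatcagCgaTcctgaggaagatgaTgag

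The exon 6 sequences differ at 16 of 136 bases (88.2% identity) and the exon 7 sequences at 4 of 98 (95.9%). The guide sequences themselves were not used here, so every possible Cas9 target of 20 bases next to an NGG in the coding exons was listed and matched to the whole genome instead. SSX1 had 69 such candidate sites, of which 25 (36.2%) occurred at 1 place in the genome. Of the SSX1 sites, 40 (58.0%) were also present in another SSX gene or SSX pseudogene and 14 (20.3%) exactly in SSX3. A match anywhere in the span of a gene was counted, introns included, and for some sites the only such match was in a pseudogene. For SSX3, 22 of 81 candidate sites (27.2%) occurred at 1 place. Of the SSX3 sites, 55 (67.9%) were also present in another SSX gene or SSX pseudogene and 14 (17.3%) exactly in SSX1. SS18 stood apart, with 193 of 198 candidate sites (97.5%) at 1 place. SSX1 exon 7 had 14 candidate sites, and 1 of them occurred at 1 place. Which of these sites the guides use is not known here, and counts of SSX1 and SSX3 guides cannot be credited to cutting of 1 SSX gene.

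Libraries held between 3394352 and 21854232 counts, a mean of 929 to 5983 for each guide, and a day 0 library was the deepest. Of the 3653 guides, 3607 had a day 0 mean of at least 30 counts and were kept, among them all 30 guides described here. Guide values are given as CPM, which are counts scaled to a common library size by TMM. A guide was called at an adjusted p under 0.05 by the quasi-likelihood test of edgeR, adjusted after Benjamini and Hochberg over the 3607 guides. Guides numbered up to sgRNA_1495 and guides numbered from sgRNA_1496 on behaved differently over the whole library. Targeting guides up to sgRNA_1495 had a median log2 fold change against day 0 of 0.52 in vivo and 0.41 in vitro, close to the non-targeting guides (0.57 and 0.50), whereas those from sgRNA_1496 on had medians of -0.61 and -0.57. SS18 has 5 guides in each number range, and all SSX1 and SSX3 guides lie in the second. The cause of this difference was not tested.

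SS18 was the most depleted gene of the library in the tumours by the median of its guides. The median log2 fold change of the 10 SS18 guides in vivo against day 0 was -4.18, the lowest of 348 genes, and the next lowest gene, PIAS1, was at -3.42. In single libraries, relative to the day 0 mean of each guide, the median of the SS18 guides lay at -3.26 and -5.56 in the tumours. At day 0 it lay at -0.06 and 0.06, values that mirror each other by this centring. Of the 10 guides, 3 fell by edgeR's test (adjusted p = 0.043 for each of sgRNA_1196, sgRNA_1502 and sgRNA_1504), whereas 1.14% of all guides were called lower and 0.554% higher. Relative to day 0 they were 83.7-fold, 101-fold and 99.0-fold lower in the tumours, and edgeR called no SS18 guide higher, with 1 higher at an unadjusted p under 0.05. DESeq2 and limma each called 5 SS18 guides lower, these 3 with sgRNA_1503 and sgRNA_1505, against 370 and 260 of all 3607 guides. All 3 calls were lost when the fit was limited to the 2 groups compared, when the replicate number was added as a block (0 of 10 called), or when 1 day 0 or 1 day 14 library was left out. When counts were scaled to the non-targeting guides, 5 SS18 guides and 323 of all 3607 guides were called lower. When tumour 1 or tumour 2 was left out, 6 SS18 guides were called lower, against 596 or 624 of all guides.

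After 14 days in culture the median of the SS18 guides lay between the tumours and day 0. It was -1.38 in vitro, which ranked 21 of 348 genes, and in single libraries it was -1.59 and -1.41. No SS18 guide passed edgeR's test in vitro, where 0% of all guides were called lower, while 2 SS18 guides and 259 of all guides were lower at an unadjusted p under 0.05. DESeq2 called 1 SS18 guide and limma 0, against 125 and 48 of all 3607 guides. Directly compared, the tumours were lower than the cultures by a median log2 fold change of -2.11 over the SS18 guides, again the lowest of 348 genes. The time that the tumours grew is not given, so setting and time cannot be told apart in this comparison. Without culture 1 the SS18 median was -0.72 in this comparison and ranked 9. In this comparison 5 SS18 guides were lower at an unadjusted p under 0.05, and 0 passed the adjusted threshold by edgeR, as for 0% of all guides. DESeq2 called 4 and limma 2, against 76 and 12 of all 3607 guides. A test of 2 libraries against 2 by exact permutation cannot give a p below 0.333, so single values were not tested that way.

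The 5 SS18 guides numbered from sgRNA_1496 on had 5 of the 6 lowest log2 fold changes of the gene in vivo. sgRNA_1502 had 3.88 and 1.98 CPM in the tumours and 15.2 and 46.1 CPM in the cultures, against 282 and 304 CPM at day 0. Its log2 fold change was -6.66 ± 1.02 in vivo (SE, n = 2 libraries a group, edgeR adjusted p = 0.043) and -3.26 ± 0.86 in vitro (adjusted p = 0.317). sgRNA_1504 had 1.11 and 1.52 CPM in the tumours and 34.7 and 27.1 CPM in the cultures, against 125 and 141 CPM at day 0. For both guides every tumour library lay below every culture, and every culture below both day 0 libraries.

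sgRNA_1503 had 1.11 and 1.06 CPM in the tumours and 13.1 and 1.55 CPM in the cultures, against 149 and 49.4 CPM at day 0. Its log2 fold change of -6.50 in vivo was close to that of sgRNA_1504 (-6.63), but the call was missed (edgeR adjusted p = 0.078). The day 0 libraries and the cultures each disagreed more than for sgRNA_1504, and the reason for the missed call was not tested. In raw numbers sgRNA_1503 was read 4 and 7 times in the tumours, with exact Poisson intervals of 1.09 to 10.2 and 2.81 to 14.4 reads that cover counting error only. The depleted guides thus rested on few reads in the tumours, where sgRNA_1196, sgRNA_1502 and sgRNA_1504 had between 4 and 14 each.

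The remaining guides of this range differed between libraries of 1 group. sgRNA_1501 had 43.8 and 1.83 CPM in the tumours and 63.5 and 26.2 CPM in the cultures, against 195 and 200 CPM at day 0. Tumour 1 thus held it at the level of the cultures while tumour 2 had nearly lost it, and the log2 fold change of -3.12 ± 1.37 in vivo missed the threshold (adjusted p = 0.197). sgRNA_1505 had 5.82 and 1.67 CPM in the tumours and 11.5 and 139 CPM in the cultures, against 134 and 145 CPM at day 0. Here the cultures disagreed, with culture 2 at the day 0 level, and the log2 fold change was -5.24 ± 1.46 in vivo (adjusted p = 0.088) and -0.89 ± 1.21 in vitro. All 5 guides of this range were below both day 0 libraries in both tumours, and 4 of 5 in both cultures. Among targeting guides of the same range, 46.6% did so in the tumours and 52.3% in the cultures.

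Among the SS18 guides numbered up to sgRNA_1495, only sgRNA_1196 fell in vivo by edgeR's test. It had 1.66 and 1.52 CPM in the tumours and 44.4 and 29.1 CPM in the cultures, against 154 and 114 CPM at day 0. The log2 fold change was -6.39 ± 1.13 in vivo (adjusted p = 0.043) and -1.87 ± 0.91 in vitro (adjusted p = 0.635), which resembled the guides of the other range. sgRNA_1200 had 56.8 and 115 CPM in the tumours and 307 and 178 CPM in the cultures, against 161 and 234 CPM at day 0. Both tumours lay below both day 0 libraries, but the log2 fold change of -1.20 ± 0.62 in vivo missed the threshold (adjusted p = 0.257). Of the 5 guides in this range, 2 were below both day 0 libraries in both tumours and 2 in both cultures, where 13.3% and 8.04% of all targeting guides up to sgRNA_1495 were.

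sgRNA_1197 went the other way. It had 1348 and 1320 CPM in the tumours and 415 and 289 CPM in the cultures, against 263 and 409 CPM at day 0. Both tumours held it above every other library, and the log2 fold change was 1.99 ± 0.47 against day 0 (adjusted p = 0.065) and 1.92 ± 0.47 against the cultures (adjusted p = 0.194). DESeq2 called it higher in both comparisons. Against day 0 it was at 1.15 when scaled to the non-targeting guides (edgeR adjusted p = 0.118) and at 1.52 with limma (adjusted p = 0.112). sgRNA_1198 had 140 and 119 CPM in the tumours and 79.1 and 56.8 CPM in the cultures, against 99.9 and 82.3 CPM at day 0. sgRNA_1199 had 130 and 176 CPM in the tumours and 233 and 185 CPM in the cultures, against 100.1 and 237 CPM at day 0. Both its tumours lay below both cultures, and both arms overlapped day 0. Over all 10 SS18 guides, 7 were below both day 0 libraries in both tumours and 2 (sgRNA_1197 and sgRNA_1198) above them, against 30.6% and 23.9% of all guides. In both cultures 6 were below and 0 above, against 31.5% of all guides below. Set against both cultures, 7 were lower in both tumours and 2 higher, where 22.4% and 19.4% of all guides were.

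Summing the reads of a gene gave another picture for SS18, since 1 guide held most of them in the tumours. The summed SS18 guides came to 1732 and 1739 CPM in the tumours and 1217 and 978 CPM in the cultures, against 1663 and 1916 CPM at day 0. The log2 fold change of the sum was -0.04 ± 0.22 in vivo (adjusted p = 0.919 over 348 genes) and -0.71 ± 0.22 in vitro (adjusted p = 0.273). By this measure 2.87% of all genes were called lower in vivo and 0.862% in vitro, while 69 of 348 were called higher in vivo and 0 in vitro (7 higher in vitro at an unadjusted p under 0.05), and the median over all gene sums was 0.40 in vivo and -0.02 in vitro. Against the cultures the SS18 sum was at 0.66 ± 0.22 in the tumours (adjusted p = 0.102). No gene of 348 was called lower in that comparison (0%, with 2 lower at an unadjusted p under 0.05), 24 were called higher (117 at an unadjusted p under 0.05), and the median over all sums was 0.39.

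sgRNA_1197 accounted for 77.9% and 75.9% of the SS18 reads in the tumours (95% Wilson intervals 76.8 to 78.9% and 75.1 to 76.7%, which cover counting error only and treat amplified reads as independent) and for 34.1% and 29.6% in the cultures, against 15.8% and 21.4% at day 0. The 5 guides numbered from sgRNA_1496 on summed to 55.7 and 8.06 CPM in the tumours and 138 and 240 CPM in the cultures, against 885 and 840 CPM at day 0. Their sum fell by 4.77 ± 0.98 on the log2 scale in vivo (adjusted p = 0.0125) and was at -2.19 ± 0.87 in vitro (adjusted p = 0.122). Without sgRNA_1197, left out because its values had been seen to be high, the SS18 sum was at -1.86 in vivo and -0.89 in the tumours against the cultures, which is a description and no test.

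SSX1 guides had medians near those of the other guides of their number range. The SSX1 median log2 fold change was -0.49 in vivo, rank 86 of 348 genes, and -0.56 in vitro, rank 62, while the other targeting guides from sgRNA_1496 on had medians of -0.60 and -0.57. No SSX1 guide was called lower by edgeR, DESeq2 or limma in either arm or between the arms, and 0 of 10 had an unadjusted p under 0.05 by edgeR. With tumour 1 left out edgeR called 3 lower in vivo, where it called 596 of all 3607 guides, and with tumour 2 left out it called 0, against 624 of all guides. In both tumours 4 of 10 SSX1 guides were below both day 0 libraries and in both cultures 6 of 10, near the 46.6% and 52.3% of targeting guides in this range. Against the cultures the median was 0.06 in the tumours, with 2 of 10 guides lower in both tumours and 3 higher, against 22.4% and 19.4% of all guides.

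The lowest SSX1 values came from single tumours. sgRNA_1522 had 102 and 2.44 CPM in the tumours and 53.5 and 55.2 CPM in the cultures, against 266 and 177 CPM at day 0. sgRNA_3242 had 81.5 and 2.28 CPM in the tumours and 115 and 63.0 CPM in the cultures, against 164 and 251 CPM at day 0. Tumour 2 had nearly lost both guides, with 16 and 15 reads, whereas tumour 1 held each of them above at least 1 culture. Their log2 fold changes of -2.09 ± 1.35 and -2.31 ± 1.34 in vivo lay within 2 SE of 0 (adjusted p = 0.358 and 0.308), and those in vitro were -2.03 ± 1.35 and -1.22 ± 1.30. Both cultures lay below both day 0 libraries for each of these guides.

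In other SSX1 guides 1 tumour or both reached or passed the day 0 levels. sgRNA_3244 had 1015 and 653 CPM in the tumours and 288 and 554 CPM in the cultures, against 488 and 380 CPM at day 0. It was the only SSX1 guide above both day 0 libraries in both tumours (log2 fold change 0.94 ± 0.50, adjusted p = 0.266). sgRNA_1524 had 854 and 277 CPM in the tumours and 310 and 213 CPM in the cultures, against 221 and 372 CPM at day 0. sgRNA_1523, the most abundant of the SSX1 guides at day 0 (551 and 527 CPM), had 640 and 80.5 CPM in the tumours and 306 and 382 CPM in the cultures, so that the tumours disagreed. sgRNA_3243 had 219 and 344 CPM in the tumours and 155 and 146 CPM in the cultures, against 324 and 284 CPM at day 0. Its in vitro log2 fold change of -1.02 ± 0.47 had the smallest p of the SSX1 guides in that comparison (adjusted p = 0.614).

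The remaining SSX1 guides lay below day 0 in 1 arm and overlapped it in the other. sgRNA_1521 had 33.0 and 90.4 CPM in the tumours, against 99.7 and 151 CPM at day 0. sgRNA_3245 had 44.4 and 62.2 CPM in the tumours, against 170 and 85.8 CPM at day 0. For both, the tumours lay below day 0 and the cultures overlapped it (125 to 128 CPM for sgRNA_1521 and 80.7 to 111 CPM for sgRNA_3245). sgRNA_1525 had 109 and 72.7 CPM in the cultures, below day 0 (160 and 253 CPM), while the tumours, at 119 and 240 CPM, overlapped day 0. sgRNA_3241 showed the same order, with 148 and 144 CPM in the cultures against 160 and 244 CPM at day 0, and 176 and 129 CPM in the tumours. Summed over its guides, SSX1 was at -0.04 ± 0.27 in vivo (adjusted p = 0.93) and -0.58 ± 0.27 in vitro (adjusted p = 0.586) on the log2 scale.

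SSX3 guides had medians close to those of SSX1. The SSX3 median log2 fold change was -0.45 in vivo, rank 94 of 348 genes, and -0.50 in vitro, rank 69. No SSX3 guide was called lower by edgeR, DESeq2 or limma. At an unadjusted p under 0.05 by edgeR, 1 was lower in vitro and 1 higher in vivo. With tumour 1 or tumour 2 left out edgeR called 1 or 2 lower in vivo, against 596 or 624 of all 3607 guides. In both tumours 2 of 10 SSX3 guides were below both day 0 libraries and 2 above, against 46.6% of targeting guides in this range below and 23.9% of all guides above. In both cultures 6 were below, against 52.3% in this range. Against the cultures the median was 0.62 in the tumours, rank 317 of 348, with 1 of 10 guides lower in both tumours and 3 higher, against 22.4% and 19.4% of all guides.

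sgRNA_1702 was the lowest SSX3 guide. It had 81.8 and 106 CPM in the tumours and 110 and 21.5 CPM in the cultures, against 176 and 492 CPM at day 0. Its log2 fold change was -1.83 ± 0.88 in vivo (adjusted p = 0.233) and -2.35 ± 0.90 in vitro (adjusted p = 0.514). sgRNA_3275 had 43.2 and 69.2 CPM in the tumours and 31.6 and 36.1 CPM in the cultures, against 104 and 151 CPM at day 0, and was at -1.91 ± 0.84 in vitro (adjusted p = 0.596). These were the only SSX3 guides below day 0 in all libraries of both arms.

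sgRNA_3273 stood at the other end. It had 1043 and 975 CPM in the tumours and 258 and 456 CPM in the cultures, against 361 and 225 CPM at day 0. Both tumours held it above every other library (log2 fold change 1.78 ± 0.49 against day 0, adjusted p = 0.085, and 1.50 ± 0.49 against the cultures, adjusted p = 0.272). DESeq2 called it higher in vivo against day 0. sgRNA_1703 had 581 and 819 CPM in the tumours and 369 and 378 CPM in the cultures, against 491 and 442 CPM at day 0. The tumours disagreed most over sgRNA_3271 (36.0 and 483 CPM) and sgRNA_3272 (175 and 20.4 CPM), which had 200 and 147 CPM and 100 and 93.1 CPM at day 0. In the cultures sgRNA_3271 had 211 and 153 CPM, overlapping day 0, and sgRNA_3272 had 64.3 and 29.5 CPM, below it.

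The other SSX3 guides overlapped day 0 in the tumours. sgRNA_1701 had 112 and 312 CPM in the tumours and 89.9 and 129 CPM in the cultures, against 138 and 270 CPM at day 0. sgRNA_1704 had 199 and 49.2 CPM in the tumours and 136 and 161 CPM in the cultures, against 287 and 191 CPM at day 0. For both, the cultures lay below day 0. sgRNA_1705 had 121 and 94.3 CPM in the tumours against 94.4 and 312 CPM at day 0, and sgRNA_3274 had 34.1 and 175 CPM against 308 and 134 CPM. In the cultures they had 226 and 169 CPM and 217 and 164 CPM, which also overlapped day 0. Summed over its guides, SSX3 was at 0.23 ± 0.20 in vivo (adjusted p = 0.402), -0.47 ± 0.20 in vitro (adjusted p = 0.544) and 0.70 ± 0.20 in the tumours against the cultures (adjusted p = 0.0818). Scaled to the non-targeting guides instead of by TMM, the sums of SS18, SSX1 and SSX3 were called lower in vitro (edgeR adjusted p = 0.0201, 0.0417 and 0.0322), and the median over all guides moved to -0.50 in vitro and -0.83 in vivo. They were also called in vitro when the tumours were left out of the fit (edgeR adjusted p = 0.0128, 0.0019 and 0.0203). How many of all 348 gene sums were called in these 2 fits is not given here, so the calls lack a share to be set against. Of all 3607 guides, 540 and 635 were lower in vitro in these fits at an unadjusted p under 0.05, against 259 with TMM and all libraries. Without tumour 1 the SSX1 sum was at -0.50 in vivo and the SSX3 sum at 0.40.

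Genes whose guides followed the most similar course were ranked by the root mean square difference of the gene median (log2 CPM relative to the day 0 mean) over the 6 libraries. Each median was taken over all guides of a gene, with both number ranges pooled. PIAS1, a SUMO ligase gene, was closest to SS18 at 0.61, followed by FRG2 at 0.91 and CSH2 at 1.13. The median log2 fold change of PIAS1 was -3.42 in vivo and -2.15 in vitro, against -4.18 and -1.38 for SS18. Closest to SSX1 were RPL14 at 0.13, PCGF3 at 0.15 and SSX3 at 0.15. For PCGF3 this likeness came from pooling, since its number ranges lay far apart and all SSX1 guides lie in the second. The PCGF3 guides from sgRNA_1496 on fell to a median log2 fold change of -2.76 in the tumours and -4.32 in the cultures. SSX1 stood at -0.49 and -0.56 there. The PCGF3 guides up to sgRNA_1495 stood at 0.45 and 0.44. Closest to SSX3 were BTRC at 0.07, HSD11B2 at 0.12 and NRBP2 at 0.14, with SSX1 in rank 5. SSX3 ranked 86 by likeness to SS18, at 2.39.

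Of 28 BAF complex gene names listed, which include synonyms, 3 were in the library, SS18, BRD9 and SMARCD1. BRD9 is a bromodomain subunit of the non-canonical BAF complex, which also contains SS18 and SMARCD1. Of their 30 guides, 4 fell in vivo (3 of SS18 and 1 of BRD9), against 1.14% of all guides, and 0 in vitro by edgeR. In vitro 7 were lower at an unadjusted p under 0.05, DESeq2 called 5 and limma 2, and 20 of the 30 lay below both day 0 libraries in both cultures. Of all 3607 guides, 259 were lower in vitro at an unadjusted p under 0.05, DESeq2 called 125 and limma 48, and 31.5% lay below both day 0 libraries. Median log2 fold changes in vivo were -0.74 for BRD9 and -1.07 for SMARCD1, against -4.18 for SS18 and 0.01 over all gene medians. With both number ranges pooled, the 3 genes were close together in vitro, at -1.50 for BRD9, -1.56 for SMARCD1 and -1.38 for SS18. The median over all gene medians was -0.05 in vitro. Between tumours and cultures, BRD9 was at 0.51 and SMARCD1 at 0.17, whereas SS18 was at -2.11. The difference between these genes was not tested. By guide number, the medians in vivo were 0.89 up to sgRNA_1495 and -4.30 from sgRNA_1496 on for BRD9, -0.80 and -1.34 for SMARCD1 and -0.14 and -6.50 for SS18. In the same order, those in vitro were 0.38 and -3.51 for BRD9, -0.80 and -1.86 for SMARCD1 and 0.07 and -2.14 for SS18.

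Of 16 genes of Polycomb repressive complex 1, whose mark the SSX part binds, 4 were in the library (PCGF3, RING1, RNF2 and USP7). EdgeR called 0 of their 39 guides lower in vivo, with an unadjusted p under 0.05 for 8 guides that were lower and 5 that were higher, and DESeq2 called 9 lower and limma 7. Of all 3607 guides, the unadjusted p was under 0.05 for 460 that were lower and 467 that were higher in vivo, and DESeq2 called 370 lower and limma 260. In vitro edgeR called 0, with 11 lower at an unadjusted p under 0.05, and DESeq2 called 9 and limma 5, against the 259, 125 and 48 of all guides given above. The median of the gene medians was -0.07 in vivo and -0.58 in vitro, with both number ranges pooled. Over guides from sgRNA_1496 on, the medians in vivo were -2.76 for PCGF3, -1.45 for RING1, 0.25 for RNF2 and -4.68 for USP7. In vitro these were -4.32, -1.30, -0.09 and -6.39. Up to sgRNA_1495 they were 0.45, 0.67, 0.26 and -0.39 in vivo and 0.44, 0.29, 0.12 and 0.19 in vitro. Of 14 names listed for the SSX family, SSX1 and SSX3 were the only ones in the library. The SSX genes of other fusions were therefore not analysed here.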

How the data were processed

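HS-SY-II Cas9 cells were screened with a pooled guide library, and 6 libraries were analysed, 2 each of tumours, of day 14 cultures and of day 0 cells. The authors deposited raw read counts per guide from MAGeCK and a table of normalized signal values, in which each deposited column is the count column times 1 factor (0.32 to 1.45) of unstated origin. MAGeCK and hg38 are named, without versions, in the submitters' processing notes.

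Guides with a day 0 mean of at least 30 counts were kept (3607, with all 183 non-targeting guides). Depth was 929 to 5983 counts per guide. After TMM scaling the counts of all 6 libraries entered 1 quasi-likelihood fit (edgeR 4.0.16, R 4.3.3, common dispersion 0.303), and p-values were adjusted by Benjamini-Hochberg over all 3607 guides at 0.05. Counts summed per gene were tested likewise over 348 genes. Gene medians of guide log2 fold changes were ranked without a test. Rank aggregation, which takes guides as the units, was not used. The fit was tested on simulated data. These had 1 common dispersion for all groups, so they cannot show how a spread that differs between groups affects the calls.

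The members, lists and tests were chosen with earlier results of these data known. All 30 guides were described, and the 3 genes most alike were named by the smallest difference over the libraries. The authors' own protocol split each transduced population between the arms, so equal numbers may mark 1 transduction. Deviations of equally numbered libraries from their group means had an r over guides of 0.0694 for day 14 and day 0, 0.00198 for tumours and day 0 and 0.00252 for tumours and day 14. The replicate block was therefore an alternative. The others were DESeq2 1.42.0 and its size factors, factors from the non-targeting guides, changed filters, fits of 2 groups, each library left out, and limma 3.58.1 on the authors' normalized signal (log2 with 1 added). Candidate sites and exons were read from hg38 and GENCODE with Python 3.11.15, numpy 2.4.6 and pandas 2.3.3.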

Additional observations from a re-analysis of the deposited data

Results flagged for a closer look

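SS18 sgRNA_1198 lay above both day 0 libraries in both tumours and below both in the cultures, and so lay on opposite sides of day 0 in the 2 arms. The log2 fold change of the tumours against the cultures was 0.93 ± 0.71 (SE), and edgeR's direct test of this difference missed the threshold (adjusted p = 0.59).

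SSX3 sgRNA_1703 was likewise above both day 0 libraries in both tumours and below both in the cultures. The log2 fold change of the tumours against the cultures was 0.91 ± 0.41, and edgeR's direct test missed the threshold (adjusted p = 0.371).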

How the results depend on the processing

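Over all guides, the number called lower in vitro was 125 with DESeq2, 293 in a fit of the 2 groups compared and 48 with limma on the authors' normalized values, against 0, and ranged from 0 to 267 with 1 library left out. In vivo it was 370, 0 and 260 in the same alternatives, 323 under scaling to non-targeting guides and 0 with the replicate block, against 41, and ranged from 0 to 624. Between tumours and cultures it was 76 with DESeq2 and 12 with limma, against 0, and ranged from 0 to 342. The share of lower calls in vivo was 67.2% with TMM, 95.3% with scaling to the non-targeting guides and 48.5% with DESeq2.

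SS18 guides called lower in vivo, 3 with TMM, were 5 with DESeq2, limma or scaling to the non-targeting guides, 0 in a fit of the 2 groups, 0 with the replicate block, and 0 to 6 with 1 library left out. In vitro they were 1 with DESeq2, 2 in a fit of the 2 groups and 0 to 1 with 1 library left out. Between tumours and cultures they were 4 with DESeq2, 2 with limma and 0 to 5 with 1 library left out. SSX1 and SSX3 had 1 guide each in a 2-group fit in vitro and 0 to 1 each with 1 library left out. In vivo SSX1 had 0 to 3 and SSX3 0 to 2, and between tumours and cultures again 0 to 3 and 0 to 2. The 3 called guides passed in 8 of 14 alternatives, with adjusted p up to 0.427.

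The SS18 median in vitro was -2.34 with limma, -1.90 with scaling to the non-targeting guides and -2.14 over guides from sgRNA_1496 on, which had -6.50 in vivo. It ranged from -1.57 to -1.25 in vitro, -6.40 to -3.38 in vivo and -3.35 to -0.72 between the arms with 1 library left out. SS18 had the lowest in vivo median of all genes in every alternative fit except that without tumour 2, where it ranked 4, and the lowest between the arms in every one except that without culture 1, where it ranked 9. For SSX1 limma gave -1.05 in vitro, -1.29 in vivo and -0.28 between the arms, and scaling to the non-targeting guides -1.07, -1.35 and -0.28. The replicate block gave -0.13 between the arms. With 1 library left out SSX1 ranged from -0.75 to -0.45 in vitro, -0.64 to -0.40 in vivo and -0.33 to 0.47 between the arms. For SSX3 limma gave -0.99 in vitro and -1.20 in vivo, scaling to the non-targeting guides -1.02, -1.30 and 0.29 between the arms, the replicate block -0.71 in vivo, and the mean over guides -0.71, -0.29 and 0.42. With 1 library left out SSX3 ranged from -0.55 to -0.42 in vitro, -0.81 to 0.074 in vivo and 0.34 to 0.86 between the arms.

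The gene sums in vitro passed the threshold in a fit of the 2 groups (SS18 -0.71, SSX1 -0.58, SSX3 -0.47), with limma (-1.21, -1.08 and -0.97) and under non-targeting scaling (-1.21, -1.09 and -0.98), and that of SS18 also with DESeq2 (-0.67). With 1 library left out the sums in vitro ranged from -0.83 to -0.51 for SS18, -0.61 to -0.47 for SSX1 and -0.49 to -0.41 for SSX3. In vivo the SS18 sum turned to 0.050 with DESeq2 or its size factors and to 0.054 in a fit of the 2 groups, and the SSX1 sum to 0.049, 0.049 and 0.051. Both passed the threshold with scaling to the non-targeting guides, at -0.90 for SS18 and -0.90 for SSX1, while the SSX3 sum turned to -0.62 there and to -0.29 with limma. The SS18 sum over guides from sgRNA_1496 on was -4.77 in vivo and -2.58 between the arms, and without sgRNA_1197 it was -1.86 and -0.89. Between the arms the SS18 sum (0.72) and the SSX3 sum (0.76) passed with DESeq2. How many of all 348 gene sums passed in these alternatives is not given here. With 1 library left out the sums in vivo ranged from -0.047 to 0.062 for SS18, -0.50 to 0.30 for SSX1 and 0.041 to 0.40 for SSX3, and between the arms from 0.57 to 0.89, 0.079 to 0.88 and 0.51 to 0.86.

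Over all 90 pairs of a guide and a comparison, 73 of 1260 alternative values had the other sign, in 30 pairs of which 0 were called and whose log2 fold changes lay between -0.92 and 1.06. Among fold changes printed here, that of sgRNA_1505 in vitro turned to 0.032 without culture 1 and was -3.56 without culture 2. Apart from the counts and sums named above, the replicate block changed no call of an SS18, SSX1 or SSX3 guide or sum. The causes of these changes were not tested.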

Other observations

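Candidate Cas9 sites were spread unevenly over the coding exons. In SS18, exons 4 and 5 held the most, 34 and 31, all at 1 place in the genome, whereas exon 7 held 20, of which 15 occurred at 1 place. The last coding exon of SS18, which the usual fusion loses, held 2 of the 198 sites, so nearly every coding site lies in the part that the normal gene and the fusion share. In SSX1, the retained exons 6 and 7 held 32 of 69 sites, 14 of them at 1 place and 13 of those in exon 6. In SSX3 they held 36 of 81 sites, 6 of them at 1 place.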
